A study of Mus musculus with 6 samples.

Results

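The genes of S phase and mitosis are 40 genes of the dividing cell, taken as a fixed list of 19 genes of DNA synthesis (Pcna to Ung) and 21 genes of G2 and mitosis (Mki67 to Nusap1), out of 38561 mouse genes counted in each library. All 40 were found by symbol, and all 40 were among the 16425 genes with enough reads to be tested. The RNA came from scraped small intestinal mucosa of C57BL/6J mice aged 8 to 12 weeks, as 3 pools labelled Rbm47_IKO and 3 pools labelled wt, each pool combining 3 mice of both sexes. In the Rbm47-IKO line, the gene of the RNA-binding protein RBM47 is floxed and Cre is driven by the villin promoter of the intestinal epithelium. The study describes this Cre as broadly active along the gut and sparse in urogenital organs. Scraped mucosa, in contrast, also holds stromal, muscle and immune cells. The labels give the controls as wild type, while the methods of the study describe Rbm47 fl/fl mice, and they are called controls here. The comparison asked whether transcripts of DNA replication and cell division differed in abundance between the genotypes.

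In the epithelium of the small intestine, division is restricted to the crypts, and the villus epithelium itself does not divide. In the crypts, stem cells and their transit-amplifying daughters pass through the cell cycle before they differentiate and move onto the villus. Genes of DNA synthesis are switched on by E2F transcription factors as cells enter S phase: the MCM helicase is loaded onto origins by CDC6 and CDT1, joined by CDC45 and the GINS complex, and followed by polymerases held on DNA by the sliding clamp PCNA. Genes of G2 and mitosis follow later under B-MYB, FOXM1 and the DREAM complex, whose LIN54 subunit recognizes the CHR element that is often found near CCAAT boxes, and they encode cyclins, CDK1, spindle motors, kinetochore proteins and the ubiquitin machinery that ends mitosis. Transcript abundance of these genes in whole tissue is commonly read as a measure of how many cells are cycling. In bulk RNA, however, fewer cells of a type cannot be told apart from less RNA per cell.

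The libraries held 31560320 to 38951830 counts each, and counts of the 40 genes ran from 14 (Fen1) to 4563 (Mki67) per library. Rbm47 itself went against the labels. Its level, as normalized CPM (counts scaled to library size by the TMM method), was 603, 625 and 620 in labelled pools 1, 2 and 3 and 459.8, 449.9 and 472 in control pools 1, 2 and 3 (means 616 ± 11.6 and 461 ± 11.1, SD, n = 3 each; edgeR adjusted p = 0.0751), so every direction below is that of the labels only. Markers of intestinal epithelium summed to 9319 to 11590 CPM in the labelled pools and 10780 to 11600 CPM in controls, and edgeR, DESeq2 and an unadjusted p under 0.05 gave 0 of these 6. Villus enterocyte markers summed to 38950 to 42590 CPM and 41300 to 44800 CPM. Of these 10, edgeR called 0 and DESeq2 2, against 2.70% and 7.57% of all genes tested. An unadjusted edgeR p under 0.05 (16.8% of all genes tested) and pools without overlap (23.3%) were found for 3 of the 10, Apoa4 and Sis at log2 fold changes of -1.01 and -0.39 and Fabp2 at 0.51. Nothing in the labels ties a pool number to a shared litter or day, so numbers are used here only to name pools. The p-values set the difference between the genotypes against the spread between pools of mice.

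No gene of S phase or mitosis passed the threshold between the genotypes. In the quasi-likelihood test of edgeR, with an adjusted p (Benjamini-Hochberg, over all genes tested) of at most 0.05 taken as a call, 0 of 40 genes were called, against 2.70% of all genes tested (1.45% higher and 1.25% lower in the labelled pools). DESeq2 and limma-voom also called 0 of the 40, against 7.57% and 2.62% of all genes tested. A missed threshold does not show equal levels, since the 95% confidence intervals of the 40 log2 fold changes reached from -1.18 to 1.204 at the widest. At an unadjusted p under 0.05, edgeR gave 1 of the 40 genes, Pcna, against 16.8% of all genes. Of the 19 S phase genes 13 had a value lower in the labelled pools, with a median log2 fold change of -0.13, and of the 21 G2/M genes 12 had a lower value, with a median of -0.02. The median over all genes tested was -0.0059, and 50.7% of them were lower. The S phase median ranged from -0.29 to 0.057 and the G2/M median from -0.23 to 0.14 when single pools were left out. Both medians were lowest without labelled pool 1 and turned positive without control pool 1, and the G2/M median was also positive, at 0.11, without labelled pool 3.

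**Figure D1:**
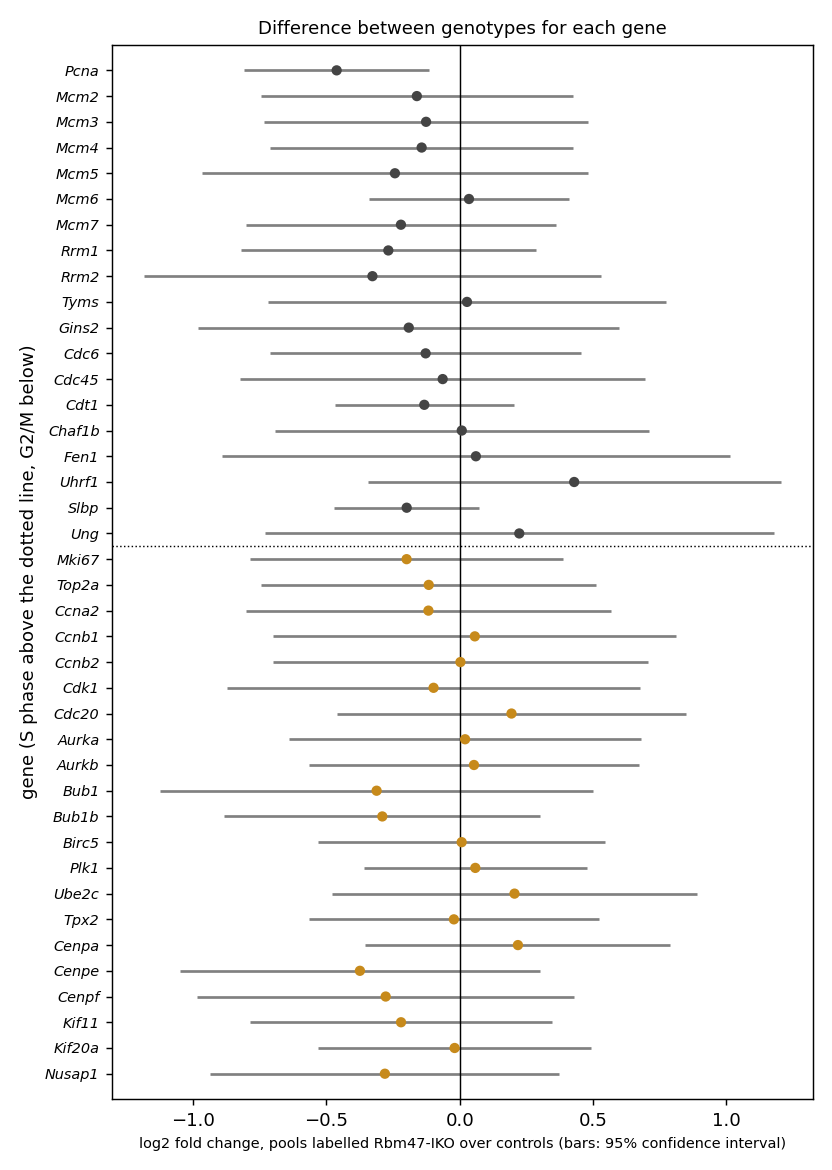
Log2 fold change of each of the 40 genes (x axis, pools labelled Rbm47-IKO over controls, n = 3 pools each) with S phase genes above and G2/M genes below the dotted line, where points are edgeR estimates and bars their 95% confidence intervals. The estimates lie between -0.46 and 0.43, and the Pcna interval alone leaves out 0, before adjustment over all genes.

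Among S phase genes, Pcna stood farthest from 0. Pcna (ENSMUSG00000027342, GRCm38 chromosome 2, 132249162 to 132253314, minus strand) encodes the clamp that keeps polymerases on the template. Its level was 12.3, 13.2 and 9.86 CPM in labelled pools 1, 2 and 3 and 15.9, 17.4 and 15.4 CPM in control pools 1, 2 and 3. Every labelled pool was below every control pool. The log2 fold change was -0.46 (SE 0.15, 95% confidence interval -0.81 to -0.12), which did not pass adjustment over all genes (edgeR adjusted p = 0.165), and it lay between -0.55 and -0.35 when single pools were left out. The other gene without overlap was Slbp, which encodes the stem-loop binding protein of histone mRNAs, at 25.5, 26.3 and 21.2 CPM in labelled pools and 28.3, 27.2 and 28.4 CPM in controls (log2 fold change -0.20, SE 0.12, edgeR adjusted p = 0.465). Thus 2 of 40 genes had pools that did not overlap, both lower in the labelled pools, against 23.3% of all genes tested (11.7% higher and 11.6% lower).

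The MCM genes encode the subunits of the replicative helicase. Their levels in the labelled pools lay within the range of the controls, except in labelled pool 3 for Mcm4, Mcm5 and Mcm7. Mcm2 was measured at 13.7, 11.2 and 10.2 CPM in labelled pools 1, 2 and 3 and at 17.4, 13.1 and 8.81 CPM in control pools 1, 2 and 3. Mcm3 was at 11.7, 9.48 and 7.81 CPM in labelled pools and 13.7, 10.75 and 7.19 CPM in controls. In both genes, control pool 1 was the highest and control pool 3 the lowest of the 6 pools, with all labelled pools between them. Mcm4 was at 12.2, 10.35 and 7.53 CPM in labelled pools and 13.97, 10.8 and 8.51 CPM in controls. Mcm5 spread most among the MCM genes, from 8.64 CPM in labelled pool 3 to 19.9 CPM in control pool 1, with 15.5 and 13.04 CPM in labelled pools 1 and 2 and 14.9 and 9.22 CPM in control pools 2 and 3. In Mcm4, Mcm5 and Mcm7 labelled pool 3 was the lowest of all, for Mcm7 at 7.53 CPM against a lowest control of 9.385 CPM. Mcm6 was at 33.2, 30.8 and 25.4 CPM in labelled pools and 33.9, 29.4 and 23.85 CPM in controls, and Mcm7 at 12.4, 11.5 and 7.53 CPM and 15.5, 11.7 and 9.385 CPM. The 6 log2 fold changes ran from -0.24 for Mcm5 (SE 0.31) to 0.035 for Mcm6 (SE 0.16), and for Mcm6 the 95% confidence interval of -0.34 to 0.41 bounds the difference most closely of the 6. Per kilobase of exon, Mcm6 stood above the other subunits in every pool, at 8.22 to 11.7 CPM per kb, whereas the highest value of any other MCM gene was 5.82 CPM per kb, for Mcm5 in control pool 1. The length used for this scale counts every annotated exon of a gene, and 12.6% of the exon bases of Mcm7 are shared with Cops6, Ap4m1 and the miRNA genes Mir25 and Mir93.

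**Figure D2:**
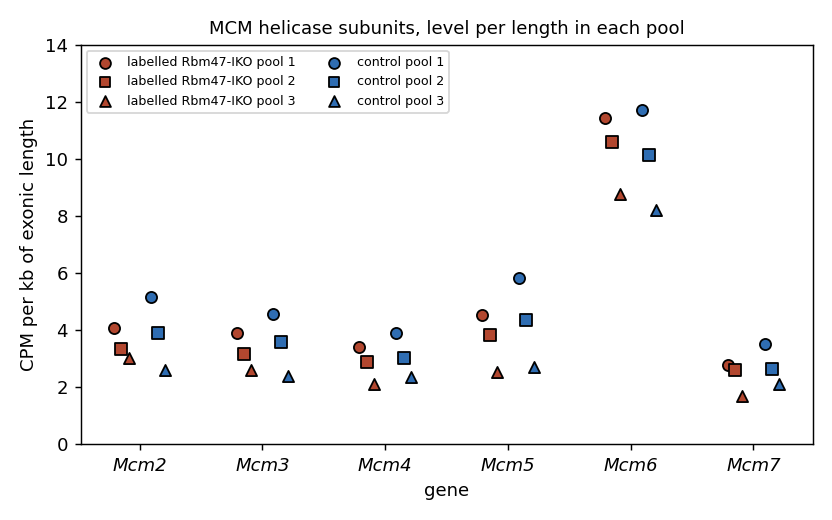
Level of the MCM helicase genes in CPM per kilobase of exonic length (y axis) in each of 6 pools, with colors for genotype and marker shapes for pool number. Mcm6 lies at 8.22 to 11.7 CPM per kb, above all points of the other subunits, and for each gene the labelled and control points interleave.

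Genes of nucleotide supply were likewise spread widely within each genotype. Rrm1, the large subunit of ribonucleotide reductase, was at 19.8, 17.8 and 12.9 CPM in labelled pools and 25.5, 20.8 and 14.6 CPM in controls. Rrm2, its S phase-restricted small subunit, was at 6.99, 5.04 and 3.74 CPM and at 9.56, 6.46 and 3.79 CPM, so that control pool 1 held 2.56 times the level of labelled pool 3. Tyms, which makes thymidylate, was at 6.27, 4.86 and 4.47 CPM in labelled pools and 7.21, 5.03 and 3.07 CPM in controls. For each of these genes control pool 1 was the highest pool. The log2 fold changes were -0.27 for Rrm1 (SE 0.24), -0.33 for Rrm2 (SE 0.37) and 0.027 for Tyms (SE 0.32), with edgeR adjusted p-values of 0.663, 0.754 and 0.981.

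Uhrf1, which reads hemimethylated DNA behind the fork and brings in the maintenance methyltransferase, had the highest log2 fold change of the 40 genes. It was at 18.3, 13.7 and 9.65 CPM in the labelled pools and 14.2, 10.5 and 6.26 CPM in controls. The groups overlapped, with labelled pool 3 below control pools 1 and 2, and the log2 fold change of 0.43 (SE 0.33) did not pass the test (edgeR adjusted p = 0.603). With single pools left out, the Uhrf1 value lay between 0.17 and 0.73. The origin licensing genes Cdc6 and Cdt1 had log2 fold changes of -0.13 and -0.13, and the helicase partners Cdc45 and Gins2 of -0.064 and -0.19. Chaf1b, a histone chaperone subunit that assembles nucleosomes on new DNA, was at 0.0079, Fen1, the nuclease of Okazaki fragment flaps, at 0.061, and Ung, which removes uracil from DNA, at 0.22, with edgeR adjusted p-values of 0.745 or more for these 7 genes. Fen1 was the least covered of all, at 0.370 to 0.809 CPM, and 84.2% of its exon bases overlap other genes (Gm10143 and Tmem258), as do 67.3% of those of Gins2 (Gse1) and 9.28% of those of Cdc45 (Ufd1). Reads in shared stretches may be missing or belong to the neighbour, since the use of strand in counting is not given in the sources used here.

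Among G2/M genes, the proliferation antigen gene Mki67 and the topoisomerase gene Top2a were the most abundant per length, at means over 6 pools of 9.25 and 6.84 CPM per kb of exon, and neither separated the genotypes. Mki67, whose protein coats mitotic chromosomes, was at 113, 79.2 and 67.7 CPM in labelled pools 1, 2 and 3 and at 134, 81.4 and 83.1 CPM in control pools 1, 2 and 3. Top2a, which untangles sister chromatids, was at 77.2, 57.3 and 43.1 CPM and at 85.5, 61.1 and 46.0 CPM. Labelled pool 1 was above control pools 2 and 3 for both genes. The log2 fold changes were -0.20 (SE 0.25, 95% confidence interval -0.79 to 0.39) for Mki67 and -0.12 (SE 0.27, -0.74 to 0.51) for Top2a.

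**Figure D3:**
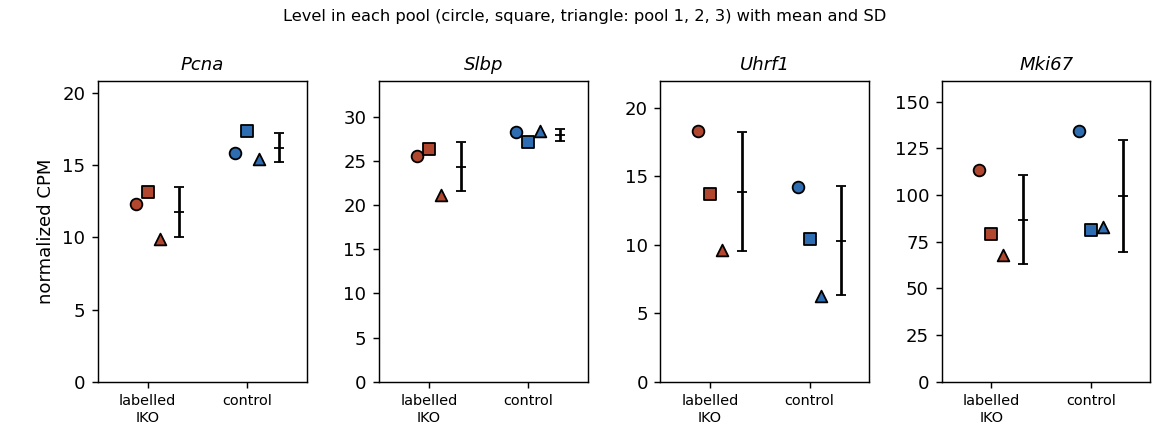
Normalized CPM (y axes, from 0) of Pcna, Slbp, Uhrf1 and Mki67 in each pool, with circle, square and triangle for pools 1, 2 and 3 and bars for the mean and SD of 3 pools. Pcna lies at 9.86 to 13.2 CPM in the labelled pools and 15.4 to 17.4 CPM in controls, Slbp is likewise without overlap, and for Uhrf1 and Mki67 the groups overlap.

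Cyclins and their kinase differed by less than the spread between pools. Ccna2, the cyclin of S phase and G2, was at 18.7, 14.7 and 9.49 CPM in labelled pools and 20.3, 15.3 and 11.0 CPM in controls. Ccnb1 was at 2.66, 2.11 and 1.501 CPM and at 2.47, 2.11 and 1.45 CPM, and Ccnb2 at 8.90, 8.03 and 5.24 CPM and at 10.2, 6.80 and 5.13 CPM. For both mitotic cyclins the values of the genotypes interleaved, with log2 fold changes of 0.057 (SE 0.33) and 0.0028 (SE 0.30). Cdk1, the kinase they activate, was at 7.65, 5.68 and 4.13 CPM in labelled pools and 8.12, 6.77 and 3.81 CPM in controls (log2 fold change -0.098, SE 0.33, edgeR adjusted p = 0.935). Per kilobase of exon the mean over 6 pools was 4.79 CPM per kb for Ccnb2 and 0.486 CPM per kb for Ccnb1, and 14.6% of the exon bases of Ccna2 are shared with Exosc9.

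Log2 fold changes of the other G2/M genes lay on both sides of 0. Cenpe, the kinetochore motor that carries chromosomes to the metaphase plate, was at 16.2, 9.48 and 9.40 CPM in labelled pools and 20.4, 11.3 and 13.75 CPM in controls (log2 fold change -0.37, SE 0.29, edgeR adjusted p = 0.603). Bub1, a kinase of the spindle checkpoint, was at 4.54, 3.67 and 2.08 CPM and at 5.82, 3.53 and 3.43 CPM (log2 fold change -0.31, SE 0.35, edgeR adjusted p = 0.753). In both, labelled pool 1 exceeded control pools 2 and 3. Log2 fold changes were -0.29 for the checkpoint gene Bub1b, -0.28 for the kinetochore gene Cenpf, -0.28 for the spindle gene Nusap1 and -0.22 for Kif11, the motor that separates spindle poles. At the other end were Cenpa, the centromeric histone, at 0.22, Ube2c, a ubiquitin-conjugating enzyme of the anaphase-promoting complex, at 0.21, and Cdc20, an activator of that complex, at 0.19. The kinases Plk1, Aurkb and Aurka had log2 fold changes of 0.059, 0.054 and 0.020, and Birc5, the passenger complex partner of Aurkb, 0.0075. Tpx2, the activator of Aurka, and Kif20a, a motor of cytokinesis, were at -0.022 and -0.019. The edgeR adjusted p-values of the 21 G2/M genes lay between 0.603 and 0.997, and 33.2% of the exon bases of Kif20a are shared with Cdc23 and 22.8% of those of Ube2c with Tnnc2.

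Pools of the same genotype differed more than the genotype means did, and the 40 genes differed together. The geometric mean of the S phase genes was 8.40, 6.70 and 5.50 CPM in labelled pools 1, 2 and 3 and 9.22, 7.35 and 5.49 CPM in control pools 1, 2 and 3. That of the G2/M genes was 12.0, 9.32 and 7.03 CPM and 12.6, 9.52 and 7.66 CPM. In each genotype, therefore, pool 1 was highest, pool 2 intermediate and pool 3 lowest for both lists. The mean log2 CPM of the S phase genes was 2.76 ± 0.31 (SD, n = 3) in labelled pools and 2.85 ± 0.37 (SD, n = 3) in controls, and that of the G2/M genes 3.21 ± 0.39 and 3.28 ± 0.36 (SD, n = 3 each), and the differences of -0.089 and -0.073 were smaller than any of these SDs. The median ratio of the highest to the lowest pool was 1.67 within the labelled pools and 1.72 within controls for the 40 genes, compared with 1.29 and 1.41 for all genes tested. Pool 1 was the highest of the labelled pools for 38 of 40 genes and of the controls for 36 of 40, against 34.6% and 37.4% of all genes tested, and pool 3 was the lowest for 38 of 40 and 34 of 40, against 38.4% and 29.7%. Pool 1 was the highest in both genotypes for 36 of 40 genes (90.0%; all genes tested, 15.8%) and pool 3 the lowest in both for 32 of 40 (80.0%; all genes tested, 11.3%). For 30 of 40 genes (75.0%), 14 of S phase and 16 of G2/M, both held, against 5.0% of all genes tested. This order of pools was described after the values were seen and was not tested. Genes that vary together are also not independent cases of it. The exceptions for pool 1 were Pcna and Slbp in both genotypes and Cdt1 and Kif20a in controls.

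**Figure D4:**
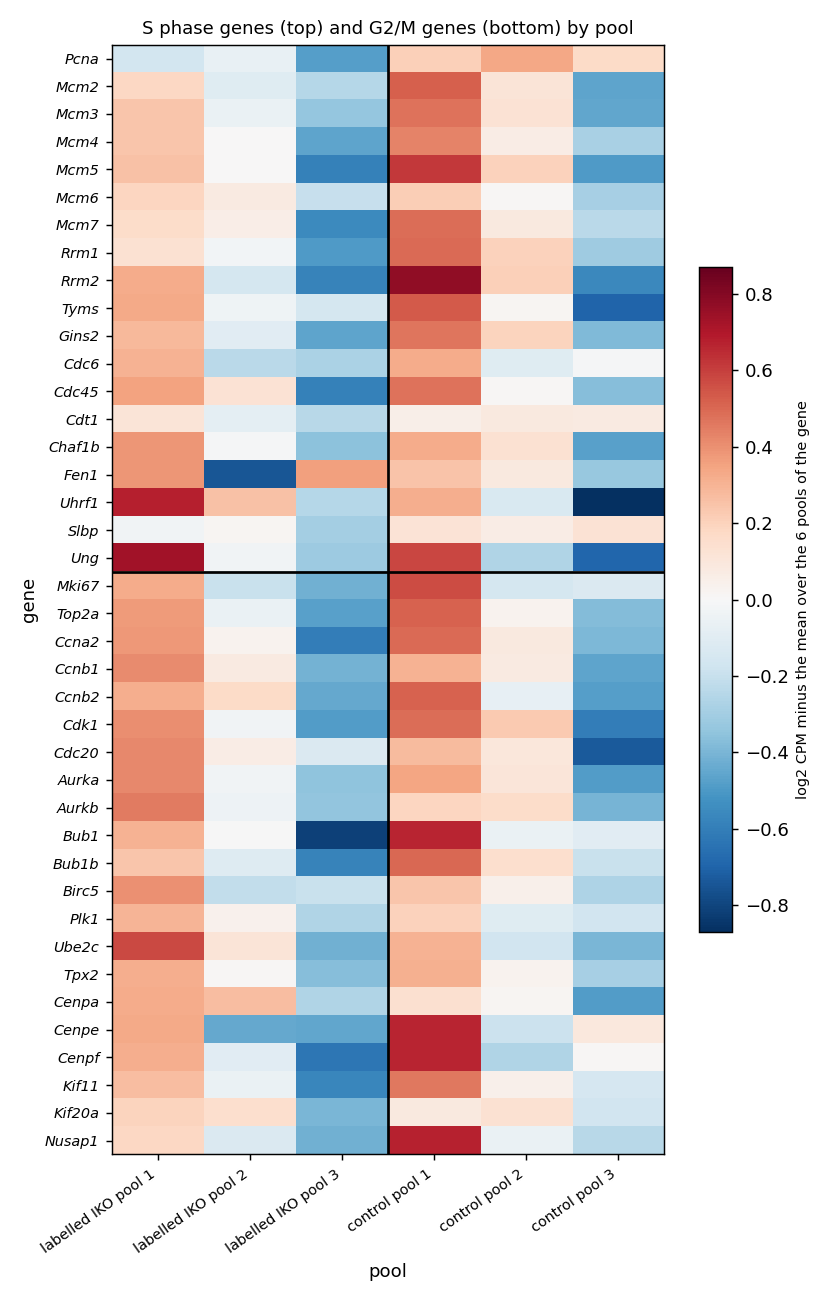
Log2 CPM of each gene minus its mean over the 6 pools (color scale), with genes in rows, S phase above and G2/M below the horizontal line, and pools in columns, labelled Rbm47-IKO left and controls right of the vertical line. Pool 1 is the highest pool in both genotypes for 36 of 40 genes and pool 3 the lowest in both for 32 of 40.

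Of the 6 pools, control pool 1 held the highest value for 23 genes and labelled pool 1 for 15, whereas labelled pool 3 held the lowest value for 24 and control pool 3 for 15. S phase and G2/M genes kept nearly the same relation to each other in every pool. The S phase mean minus the G2/M mean, in log2 CPM, was -0.45 ± 0.085 (SD, n = 3) in labelled pools and -0.43 ± 0.056 (SD, n = 3) in controls. Other cell markers also varied between these pools. Paneth cell markers, from cells at the crypt base, summed to 867, 981 and 536 CPM in labelled pools 1, 2 and 3 and 1928, 1369 and 537 CPM in controls, and all 6 markers had lower mean values in the labelled pools, although edgeR and DESeq2 called 0 of them and 0 had an unadjusted p under 0.05. Crypt stem cell markers summed to 234, 204 and 230 CPM and to 244, 315 and 177 CPM, but this sum mixes markers with unlike pool orders. Smoc2 and Rgmb were highest in labelled pool 3 (39.3 and 38.4 CPM) and control pool 2 (33.8 and 31.8 CPM). Lgr5, Olfm4, Ascl2 and Cdca7 were lowest in pool 3 of both genotypes, Axin2 only in that of the labelled pools and Slc12a2 only in that of controls. Log2 fold changes were above 0 for 5 of the 8 markers (Lgr5 0.18, Axin2 0.20, Smoc2 0.29, Rgmb 0.41 and Cdca7 0.53) and below 0 for 3. Of these 8, edgeR called 0 and DESeq2 1, against 2.70% and 7.57% of all genes tested, and 1, Olfm4, had an unadjusted edgeR p under 0.05 (all genes tested, 16.8%), at 16.8, 16.4 and 12.3 CPM in labelled pools and 42.97, 79.7 and 20.7 CPM in controls (log2 fold change -1.65, SE 0.43, edgeR adjusted p = 0.0974). Smooth muscle markers summed to 361, 586 and 3302 CPM in labelled pools and 90.7, 2803 and 313 CPM in controls. They were lowest in control pool 1 and highest in labelled pool 3, but control pool 3, with the lowest control level of both gene lists, held less than control pool 2. Markers of germinal centre B cells, another dividing cell of the gut wall, summed to 34.5 to 38.9 CPM and 26.3 to 46.4 CPM with Mef2b at 0 in every pool, and those of B cells to 5.95 to 20.2 CPM and 18.7 to 35.8 CPM, with 7 of 7 B cell markers lower and 0 called by edgeR or DESeq2 or at an unadjusted p under 0.05. T cell markers summed to 48.9, 46.9 and 40.7 CPM in labelled pools and 58.7, 40.95 and 43.3 CPM in controls, with pool 1 highest in both genotypes as in the 40 genes. Plasma cell markers summed to 382 to 473 CPM and 362 to 377 CPM, and edgeR called 1 of the 5, Sdc1, against 2.70% of all genes tested. Sdc1 (log2 fold change 1.21, SE 0.15, edgeR adjusted p = 0.0119) was the only 1 higher in the labelled pools. It was at 146, 158 and 118 CPM there and at 52.9, 67.7 and 62.4 CPM in controls. The other 4 had lower values, with log2 fold changes of -0.44 for Jchain, -0.51 for Mzb1, -0.225 for Tnfrsf17 and -0.0069 for Xbp1. The higher plasma cell sum in the labelled pools thus rests on Sdc1 and is not a rise of the list. The part of these cells in the pool differences was not tested.

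**Figure D5:**
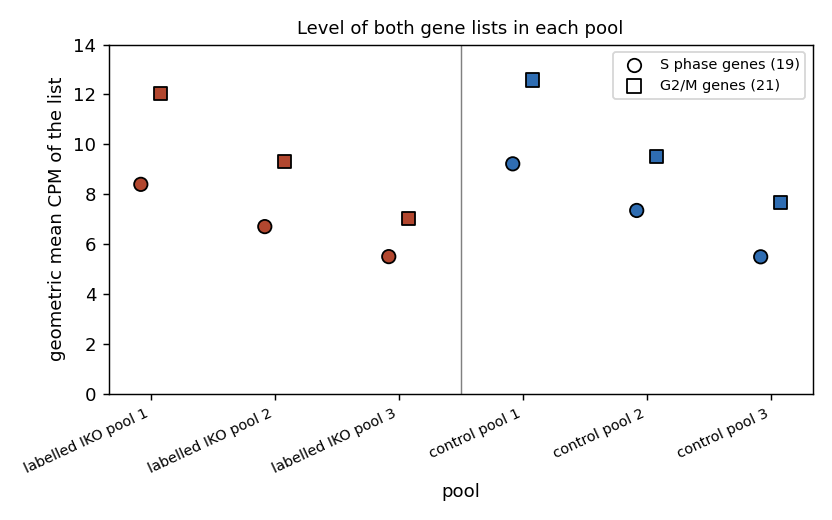
Geometric mean CPM (y axis, from 0) of the 19 S phase genes (circles) and the 21 G2/M genes (squares) in each of the 6 pools, labelled Rbm47-IKO left and controls right. Both lists run from 8.40 and 12.0 CPM in labelled pool 1 to 5.50 and 7.03 CPM in labelled pool 3, and over a like range in controls.

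The promoters of the 40 genes were read for letters of the motifs through which such genes are known to be controlled. A link between these letters and the differences between pools was not tested. Promoter windows from RefSeq (GRCm38.p6), 250 bases before to 50 after the gene start, were matched for 34 of the 40 genes, 17 of each list. Windows were searched on both strands for the CCAAT box (CCAAT), the CHR element (TTTGAA or TTCGAA) and the E2F site (TTTCCCGC, TTTCGCGC, TTTGCCGC or TTTGGCGC). The 6 windows shown are those of Pcna, which had the largest difference, of Mcm5 and Mcm6, at either end of the MCM fold changes, and of 3 G2/M genes that hold both CCAAT and CHR letters. Capitals mark every match to any of these motifs or its reverse complement, and matches that overlap are merged, as in the first block of Mcm5.
Pcna, chr2:132253131-132253430, minus strand: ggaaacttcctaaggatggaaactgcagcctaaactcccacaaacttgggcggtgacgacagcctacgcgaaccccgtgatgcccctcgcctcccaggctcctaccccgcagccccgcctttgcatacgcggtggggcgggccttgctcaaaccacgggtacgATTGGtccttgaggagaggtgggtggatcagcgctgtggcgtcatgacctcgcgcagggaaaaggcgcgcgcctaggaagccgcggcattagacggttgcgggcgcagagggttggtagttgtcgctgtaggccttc
Mcm5, chr8:75109259-75109558, plus strand: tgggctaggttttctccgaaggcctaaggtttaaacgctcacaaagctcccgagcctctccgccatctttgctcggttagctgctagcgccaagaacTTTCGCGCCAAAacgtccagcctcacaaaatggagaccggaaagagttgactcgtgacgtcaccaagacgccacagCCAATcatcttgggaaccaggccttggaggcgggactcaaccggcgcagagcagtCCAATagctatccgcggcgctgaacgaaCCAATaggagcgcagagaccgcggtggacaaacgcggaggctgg
Mcm6, chr1:128359656-128359955, minus strand: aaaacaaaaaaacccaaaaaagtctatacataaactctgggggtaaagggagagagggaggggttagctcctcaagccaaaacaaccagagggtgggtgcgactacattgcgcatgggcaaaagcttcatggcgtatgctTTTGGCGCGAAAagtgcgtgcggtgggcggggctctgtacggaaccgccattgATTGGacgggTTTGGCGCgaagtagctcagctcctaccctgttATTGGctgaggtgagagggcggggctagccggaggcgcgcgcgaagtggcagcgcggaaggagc
Ccnb2, chr9:70421505-70421804, minus strand: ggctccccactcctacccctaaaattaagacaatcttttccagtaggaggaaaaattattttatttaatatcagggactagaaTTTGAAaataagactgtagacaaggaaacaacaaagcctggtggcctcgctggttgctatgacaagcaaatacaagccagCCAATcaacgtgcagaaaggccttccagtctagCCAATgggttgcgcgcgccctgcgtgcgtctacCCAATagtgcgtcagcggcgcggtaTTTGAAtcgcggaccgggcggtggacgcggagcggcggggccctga
Cdc20, chr4:118437294-118437593, minus strand: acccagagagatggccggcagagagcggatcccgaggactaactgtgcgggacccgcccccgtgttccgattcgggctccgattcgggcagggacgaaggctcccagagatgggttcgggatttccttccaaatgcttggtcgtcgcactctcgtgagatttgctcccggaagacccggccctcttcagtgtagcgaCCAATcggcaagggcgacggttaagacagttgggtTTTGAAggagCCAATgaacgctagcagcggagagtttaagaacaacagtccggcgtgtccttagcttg
Top2a, chr11:99024140-99024439, minus strand: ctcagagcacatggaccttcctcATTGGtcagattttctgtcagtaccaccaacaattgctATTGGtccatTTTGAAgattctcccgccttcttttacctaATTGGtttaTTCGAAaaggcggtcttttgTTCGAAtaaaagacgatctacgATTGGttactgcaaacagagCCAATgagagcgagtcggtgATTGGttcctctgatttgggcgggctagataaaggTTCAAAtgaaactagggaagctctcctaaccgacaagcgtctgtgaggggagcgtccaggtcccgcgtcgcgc
In the Pcna window the marked letters are a reverse CCAAT box, with no match to the E2F or CHR letters. The Mcm5 and Mcm6 windows hold E2F letters beside CCAAT boxes, and the Ccnb2, Cdc20 and Top2a windows hold CHR letters beside CCAAT boxes. Among S phase genes, E2F letters were found in 6 of 17 windows (35.3%), CHR letters in 4 (23.5%) and CCAAT in 11 (64.7%). Among G2/M genes, E2F letters were found in 1 of 17 windows (5.88%), CHR letters in 13 (76.5%) and CCAAT in 15 (88.2%), with CCAAT and CHR together in 13. Over all 27025 windows of the same length the shares were 2.32% for E2F, 19.4% for CHR, 37.9% for CCAAT and 7.7% for CCAAT with CHR. These matches describe letters in a window and not bound sites, and a window without a match says only that these letters are not in it.

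Relative to the mean log2 CPM of the 40 genes in the same pool, a scale chosen after the values were seen, 6 of 40 genes had pools that did not overlap, against 7.38% of all genes tested. Uhrf1, Cdc20, Ube2c and Cenpa were higher in the labelled pools on this scale (4 of 40, against 5.21% of all genes tested) and Bub1b and Kif11 lower (2 of 40, against 2.17%). Uhrf1 was at 0.85, 0.78 and 0.63 above the mean in labelled pools 1, 2 and 3, and at 0.39, 0.31 and -0.064 in control pools 1, 2 and 3. Cdc20 was at 0.17, 0.16 and 0.32 and at -0.068, 0.12 and -0.35. Bub1b was at 0.41, 0.40 and 0.28 and at 0.57, 0.58 and 0.61. Pcna overlapped on this scale, at 0.28, 0.73 and 0.66 in labelled pools and 0.55, 1.05 and 1.24 in controls. On the same scale, pools did not overlap for 17 of 52 further mitosis genes (32.7%), 4 of 24 regulators (16.7%) and 4 of 46 further DNA replication genes (8.70%). The share over all genes is low on this scale by construction, since subtracting the mean of the 40 genes adds its spread between pools to genes that do not share it, and it was 23.3% without the subtraction. No test was run on these values.

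Further genes of DNA replication gave no call by edgeR. Of 46 such genes outside the 40, 37 had lower values in the labelled pools (80.4%; all genes tested, 50.7%) and 9 higher (median log2 fold change -0.10). This count was not followed over fits with single pools left out, where that of the 40 genes ran from 9 to 37 lower. Of the 46, edgeR called 0 (all genes tested, 2.70%), with 3 at an unadjusted p under 0.05 (6.52%; all genes tested, 16.8%) and 1 called by DESeq2 (2.17%; all genes tested, 7.57%). The highest values were those of Pold2, a subunit of the lagging-strand polymerase delta, and of Rpa3, a subunit of the single-strand binding protein RPA. Pold2 was at 14.85, 11.7 and 11.1 CPM in labelled pools 1, 2 and 3 and at 11.4, 9.09 and 5.27 CPM in control pools 1, 2 and 3 (log2 fold change 0.54, SE 0.28, edgeR adjusted p = 0.392). Rpa3 was at 2.80, 2.69 and 2.695 CPM and at 2.15, 1.87 and 1.81 CPM (0.49, SE 0.22, edgeR adjusted p = 0.328). For Rpa3 every labelled pool lay above every control pool, and for Pold2 control pool 1 lay between the labelled pools. Pools did not overlap for 6 of the 46 genes (13.0%), 2 higher and 4 lower in the labelled pools, against 23.3% of all genes tested. The lowest values were those of Pole2, a subunit of the leading-strand polymerase epsilon, at 1.47, 1.11 and 0.735 CPM against 2.29, 1.555 and 1.235 CPM (-0.61, SE 0.38, edgeR adjusted p = 0.486), and of Hells, a chromatin remodeler needed for DNA methylation, at 9.16, 5.81 and 4.99 CPM against 14.8, 8.04 and 6.75 CPM (-0.57, SE 0.35, edgeR adjusted p = 0.486). In both, labelled pool 1 lay within the control range. DESeq2 called Mcmbp, which encodes an MCM-binding protein, at 67.45, 68.2 and 65.1 CPM in labelled pools and 86.4, 80.2 and 85.5 CPM in controls (edgeR log2 fold change -0.33, SE 0.090, adjusted p = 0.110).

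Of 52 further mitosis genes, edgeR called 0 and DESeq2 0, against 2.70% and 7.57% of all genes tested. At an unadjusted edgeR p under 0.05 there were 3 (5.77%; all genes tested, 16.8%). Values in the labelled pools were lower for 31 (59.6%; all genes tested, 50.7%) and higher for 21 (median -0.087). The highest values were those of Pttg1, the securin that guards sister chromatid cohesion, and of Kif4, a chromosome-arm motor. Pttg1 was at 11.2, 11.2 and 10.3 CPM in labelled pools and 6.12, 9.17 and 6.997 CPM in controls (log2 fold change 0.55, SE 0.18, edgeR adjusted p = 0.181). Kif4 was at 20.6, 18.46 and 17.1 CPM and at 15.8, 11.6 and 12.6 CPM (0.49, SE 0.15, edgeR adjusted p = 0.158). In both genes every labelled pool lay above every control pool, and these were the only 2 of the 52 without overlap (3.85%), against 23.3% of all genes tested. The lowest values were those of Ndc80, the kinetochore's microtubule anchor, at 1.47, 1.37 and 0.827 CPM against 2.65, 2.16 and 1.399 CPM (-0.75, SE 0.36, edgeR adjusted p = 0.351), and of the condensin subunit Smc2, at 13.5, 8.92 and 8.55 CPM against 20.4, 12.9 and 12.05 CPM (-0.55, SE 0.26, edgeR adjusted p = 0.356). For Ndc80 and Smc2, labelled pool 1 lay within the control range. Pool 1 was highest and pool 3 lowest in both genotypes for 32 of the 52 mitosis genes (61.5%) and 20 of the 46 replication genes (43.5%), against 5.0% of all genes tested.

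Of 24 regulators of S phase and G2/M transcription, edgeR called 0 (all genes tested, 2.70%), DESeq2 called 1, Lin54 (4.17%; all genes tested, 7.57%), and 4 had an unadjusted edgeR p under 0.05 (16.7%; all genes tested, 16.8%). Values were higher for 13 and lower for 11 (45.8%; all genes tested, 50.7%), with a median log2 fold change of 0.052. Lin54, the CHR-binding subunit of DREAM, was at 26.2, 24.6 and 21.7 CPM in labelled pools and 37.0, 30.4 and 37.5 CPM in controls, without overlap (log2 fold change -0.53, SE 0.13, edgeR adjusted p = 0.0786). Rbl1, the pocket protein p107 that represses E2F targets, was at 33.5, 33.85 and 30.8 CPM and at 42.9, 34.8 and 41.6 CPM (-0.28, SE 0.12, edgeR adjusted p = 0.275). E2f8, an atypical E2F repressor, was at 9.50, 8.18 and 7.29 CPM and at 8.26, 5.64 and 5.24 CPM (0.38, SE 0.22, edgeR adjusted p = 0.456). Wee1, the kinase that holds CDK1 inactive, was at 21.2, 20.46 and 23.2 CPM against 19.4, 16.2 and 14.2 CPM (0.38, SE 0.14, edgeR adjusted p = 0.236). Pools did not overlap for Lin54, Rbl1 and Wee1, and for 5 of the 24 regulators in all (20.8%), against 23.3% of all genes tested. The order of pools seen in the 40 genes, with pool 1 highest and pool 3 lowest in both genotypes, was found in 8 of the 24 regulators (33.3%), namely E2f1, E2f2, E2f7, E2f8, Tfdp1, Mybl2, Foxm1 and Fbxo5.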

How the data were processed

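Members of the S phase and mitosis lists, the other gene lists, the motifs and the alternatives were chosen with earlier results of these data known. Per the labels and the submitters' processing notes, reads were aligned with STAR 2.5.1a to GRCm38 and counted with featureCounts 1.4.6-p5 of Subread, and the use of strand is not given in the sources used here. The authors deposited, for each pool, the count of reads per Ensembl gene, not normalized, with CPM and RPKM values that the authors derived from the counts. The deposited CPM and RPKM were not used in any test. Symbols were matched for 36639 of 38561 genes.

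Counts were filtered with filterByExpr, scaled by TMM, and compared between genotypes over all 6 pools by edgeR 4.0.16 (quasi-likelihood test) in R 4.3.3, with Benjamini-Hochberg adjustment over 16425 genes and a threshold of 0.05. Printed CPM values use TMM library sizes, and levels per kilobase use the length of all annotated exons. Tests and scripts were tested on simulated data. Alternatives were DESeq2 1.42.0, limma-voom (limma 3.58.1), other scaling factors, other filters, robust estimation, removal of 258 immunoglobulin and smooth muscle genes before scaling, a replicate block and each pool left out. An offset from a lowess curve (span 0.3) on GC content and the scale relative to the 40 genes were added after the data were seen. The counts of genes with pool 1 highest or pool 3 lowest, in every list, also follow a rule set after the data were seen. No exact permutation test was run, since the smallest p it allows for 3 pools a group is 0.1. Reads are not independent molecules, and depths give counting error only. Pool values were given for Pcna, Mcm2 to Mcm7, Rrm1, Rrm2, Tyms, Mki67, Top2a, Ccna2, Ccnb1, Ccnb2 and Cdk1, for the 5 members with the largest absolute log2 fold change, and, in the other lists, for called genes or otherwise the 2 largest log2 fold changes each way. Slbp, Mcmbp, Olfm4, Apoa4, Sis, Fabp2, Sdc1 and the relative values of Cdc20 and Bub1b are outside the rule and were picked once their values were known. For 1 gene of the list of other DNA replication genes, the result is not reported here, and the gene was left out of the counts of that list.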

Additional observations from a re-analysis of the deposited data

How the results depend on the processing

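Among the 40 genes, 0 passed the threshold in any of the 17 alternative fits, with a lowest adjusted p of 0.106 (DESeq2). The count over all 16425 genes moved from 443 to 1243 with DESeq2, 266 with the GC offset and 0 to 431 with single pools left out (0 without labelled pool 2, with 1729 genes at an unadjusted edgeR p under 0.05, 11 without control pool 3, 32 without labelled pool 1 and 119 without labelled pool 3). DESeq2 called 1 other replication gene and 1 regulator, in place of 0. Rbm47 passed the threshold with DESeq2 (0.41, adjusted p = 0.00105) and with library size only (0.41, adjusted p = 0.0473). With the pool number as a replicate block, 100 genes and 0 of the 40 were called, and 3 of the 40 had an unadjusted edgeR p under 0.05, in place of 1. Same-numbered pools correlated in their deviations over all genes at 0.42, -0.043 and -0.324, and labelled pool 3 correlated best with control pool 2 (0.501). Both of these pools also held the highest smooth muscle sums (3302 and 2803 CPM). Such correlations cannot decide whether same-numbered pools share a litter or day, and the main fit holds no block. Relative to the mean of the 40 genes, 6 did not overlap in place of 2.

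Values near 0 took the other sign in some fits, and the cause was not tested. These were Mcm6 (-0.0039), Tyms (-0.017), Chaf1b (-0.034), Ccnb2 (-0.042), Aurka (-0.022) and Birc5 (-0.032) with upper quartile factors, and Chaf1b (-0.015), Ccnb2 (-0.023), Aurka (-0.0031) and Birc5 (-0.0093) with library size only. They were also Ccnb2 (-0.0058) with at least 1 CPM in 3 pools, a filter that Fen1 did not pass, Fen1 (-0.014) and Birc5 (-0.0055) with limma-voom, Birc5 (-0.0067) with the replicate block, and Fen1 (-0.0076), Top2a (0.0023), Aurka (-0.0029), Plk1 (-0.047) and Tpx2 (0.0062) with the GC offset. With single pools left out, 29 of the 40 genes took the other sign at least once, up to 16 at a time (without control pool 1). The ranges of the log2 fold change over those fits were -0.37 to 0.096 for Mcm2, -0.33 to 0.11 for Mcm3, -0.31 to 0.057 for Mcm4, -0.49 to 0.039 for Mcm5, -0.085 to 0.16 for Mcm6, -0.60 to 0.038 for Rrm2 and -0.23 to 0.36 for Tyms. They were -0.40 to 0.0066 for Gins2, -0.34 to 0.0095 for Cdc6, -0.27 to 0.18 for Cdc45, -0.20 to 0.18 for Chaf1b, -0.12 to 0.35 for Fen1, -0.14 to 0.66 for Ung and -0.44 to 0.075 for Mki67. Ranges were -0.35 to 0.15 for Top2a, -0.36 to 0.12 for Ccna2, -0.15 to 0.25 for Ccnb1, -0.20 to 0.31 for Ccnb2, -0.35 to 0.14 for Cdk1, -0.049 to 0.40 for Cdc20 and -0.21 to 0.21 for Aurka. Further ranges were -0.19 to 0.22 for Aurkb, -0.23 to 0.13 for Birc5, -0.088 to 0.19 for Plk1, -0.071 to 0.42 for Ube2c, -0.20 to 0.14 for Tpx2, -0.53 to 0.033 for Cenpf and -0.13 to 0.15 for Kif20a. The range for Nusap1 was -0.45 to 0.044. Genes that kept their sign also moved, over -0.37 to -0.011 for Mcm7, -0.45 to -0.070 for Rrm1, -0.23 to -0.050 for Cdt1 and 0.17 to 0.73 for Uhrf1. The same holds for Slbp (-0.26 to -0.11), Bub1 (-0.56 to -0.022), Bub1b (-0.51 to -0.099), Cenpa (0.057 to 0.38), Cenpe (-0.68 to -0.10) and Kif11 (-0.43 to -0.025). Without control pool 1, 9 of the 40 genes had lower values, and without labelled pool 1 or control pool 3, 37. At 3 pools a group the median standard error of the 40 log2 fold changes was 0.28, against 0.21 for all genes tested.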
